A study of Mus musculus with 7 samples.

Results

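Aminoacyl-tRNA synthetases are the enzymes that load each transfer RNA (tRNA) with its amino acid before the tRNA enters the ribosome. Cells hold one set for protein synthesis in the cytosol and a second, nuclear-encoded set that is imported into mitochondria and serves the mitochondrial ribosome. In cultured cells, amino acid shortage activates the kinase GCN2 and the transcription factor ATF4, and many cytosolic synthetase genes are known ATF4 targets. The synthetase genes were taken by symbol (a letter followed by ars and an optional number, plus Eprs, Farsa and Farsb), which gave 37 of the 57180 genes in the count table. Of these, 18 encode cytosolic enzymes, 2 (Gars and Kars) encode enzymes of both compartments and 17 encode mitochondrial enzymes. Symbols are those of the table, so that Rars is the gene now also written Rars1.

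The genes were compared between regulatory T cells (Treg cells, CD4 T cells that hold back other immune cells and need FOXP3, a transcription factor, for their identity) with high and with low FOXP3. Both populations were sorted from lymphocytes that had infiltrated B16-F0 melanomas, a transplanted mouse melanoma, in mice that express YFP and Cre from the Foxp3 gene; both carry the genotype label WT. There were 4 FOXP3-low and 3 FOXP3-high bulk mRNA libraries, with total counts of 12177761 to 14546999 and 9048771 to 11202260. The labels give no animal ages and no sort gates, and do not name the mouse behind each library, and p-values therefore cover the spread among these libraries alone, which may be technical. Levels are given in CPM (counts scaled to a common library total, after TMM, a method that scales libraries to each other on the bulk of their genes). A positive log2 fold change, given ± its standard error (SE), means a higher level in FOXP3-high. A gene is called at a Benjamini-Hochberg adjusted p under 0.05 over all 15838 genes tested with edgeR's quasi-likelihood test. All 37 synthetase genes were tested.

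FOXP3-high libraries held fewer transcripts of the cytosolic synthetases, while the mitochondrial set had no common direction. Of the 20 genes that serve the cytosol, 18 fell, none rose and 2 were not called, and in the same 18 genes the highest FOXP3-high library lay below the lowest FOXP3-low library. Of all genes tested, 24.6% were called lower and 21.8% higher (46.5% in either direction), and 26.8% were lower and 23.9% higher without overlap between the groups. The 18 decreases ran from 1.14-fold to 1.72-fold. Of the 17 mitochondrial genes, 2 fell, 2 rose and 13 were not called. The median log2 fold change was -0.42 over the 18 cytosolic genes and -0.04 over the 17 mitochondrial genes, beside 0.01 over all genes tested. Summed over the 18 cytosolic genes the level was 2539 ± 46.4 CPM (SD, n = 4) in FOXP3-low and 1915 ± 37.2 CPM (SD, n = 3) in FOXP3-high. The sum over the 17 mitochondrial genes was 260 ± 14.3 CPM and 269 ± 8.72 CPM.

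**Figure D1:**
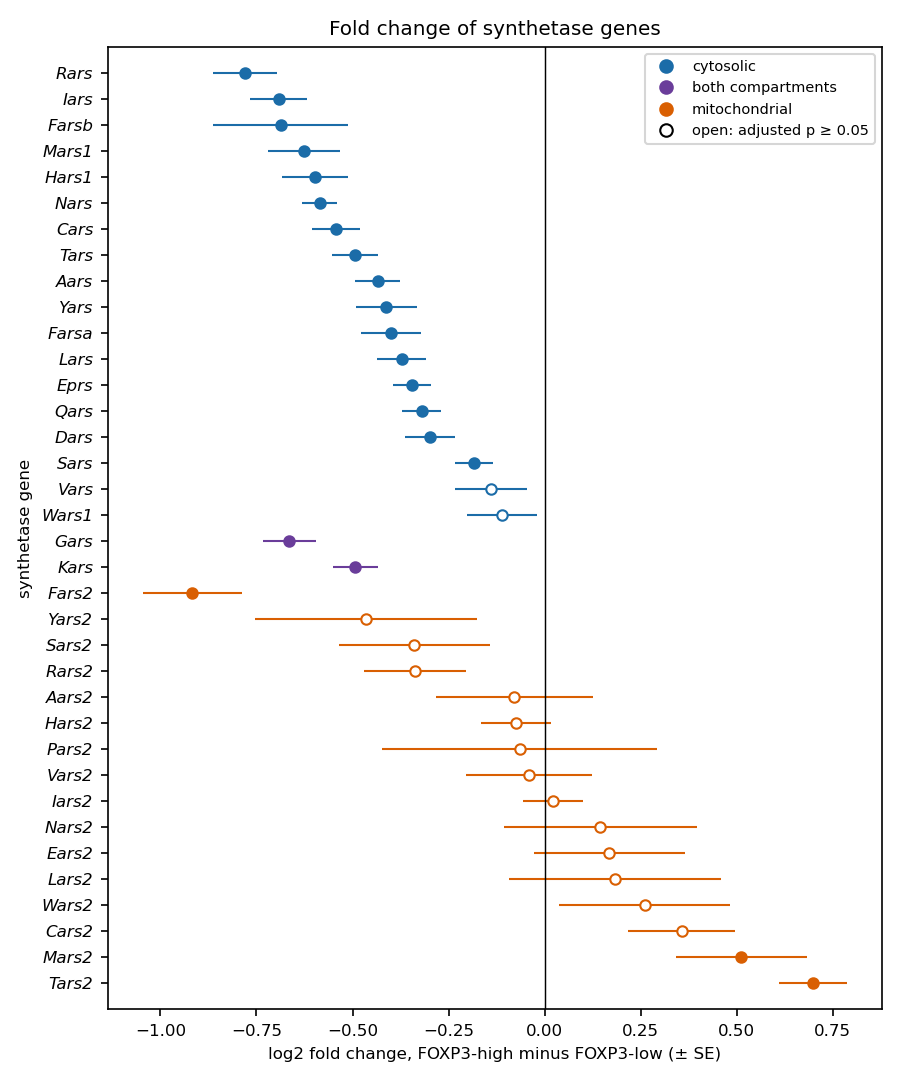
Each point is the log2 fold change (FOXP3-high minus FOXP3-low, horizontal axis) of 1 synthetase gene with its SE, coloured by compartment; filled points passed an adjusted p of 0.05 in edgeR. All 20 genes that serve the cytosol lie left of 0, and the mitochondrial genes shown lie from -0.92 to 0.70.

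Markers of other cells moved with these groups. Their counts of calls stand beside 24.6% called lower and 21.8% called higher over all genes tested. Of 18 macrophage and monocyte genes 17 were called lower in FOXP3-high and 1, the chemokine receptor Ccr2, higher, and their summed level was 2787 to 3523 CPM in FOXP3-low libraries and 743 to 792 CPM in FOXP3-high libraries. The 7 neutrophil genes summed to 2638 to 3102 CPM and 103 to 235 CPM (6 called lower), and the 11 dendritic cell and MHC class II genes to 2390 to 3679 CPM and 196 to 323 CPM (11 called lower). Melanoma and melanocyte genes summed to 1431 to 2563 CPM and 3475 to 4774 CPM, with 11 of 11 tested called higher. All 16 cell cycle genes were called lower, with sums of 5703 to 6145 CPM and 1294 to 1495 CPM. Of 17 T cell identity genes 16 were called higher, and 6 of 7 Treg genes, Foxp3 among them at 357 ± 44.3 CPM in FOXP3-low libraries and 698 ± 95.4 CPM in FOXP3-high. The remaining Treg gene, Il2ra, was at 535 ± 26.5 and 476 ± 49.7 CPM and was not called (-0.17, edgeR adjusted p = 0.0828). B cell and plasma cell genes summed to 397 to 527 CPM and 92 to 123 CPM, with 3 of 5 tested called lower, and CD8 T and NK cell genes to 44.1 to 48.3 CPM and 16.6 to 24.8 CPM, with 3 of 4. The 6 endothelial and the 6 tested fibroblast and pericyte genes were not called. No marker of these lists was at 0 counts in all 7 libraries. In bulk RNA, a change in the share of a cell type and a change in RNA per cell cannot be told apart, and the part of these cells in the synthetase differences was not tested.

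Scaling to the summed counts of the 17 T cell identity genes moved the median of all genes by -0.51 and changed how many synthetase genes were called. The split of calls over all genes was 3459 higher and 3898 lower with TMM and 691 higher and 8346 lower with T cell identity scaling. The cytosolic median was then -0.94 and the mitochondrial median -0.56 (-0.555 before rounding), beside -0.50 for all genes. A scaling adds nearly the same amount to every gene, so the distance of a set's median from that of all genes is the same under each by construction. That distance was -0.43 for the cytosolic and -0.05 for the mitochondrial genes. The sign of the mitochondrial median depended on the scaling, with 0.01 under upper quartile factors and 0.03 under total counts. With T cell identity scaling 18 of 18 cytosolic genes and 9 of 17 mitochondrial genes were called lower and no synthetase gene was called higher. Under that scaling 52.7% of all genes tested were called lower, close to the mitochondrial share.

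**Figure D2:**
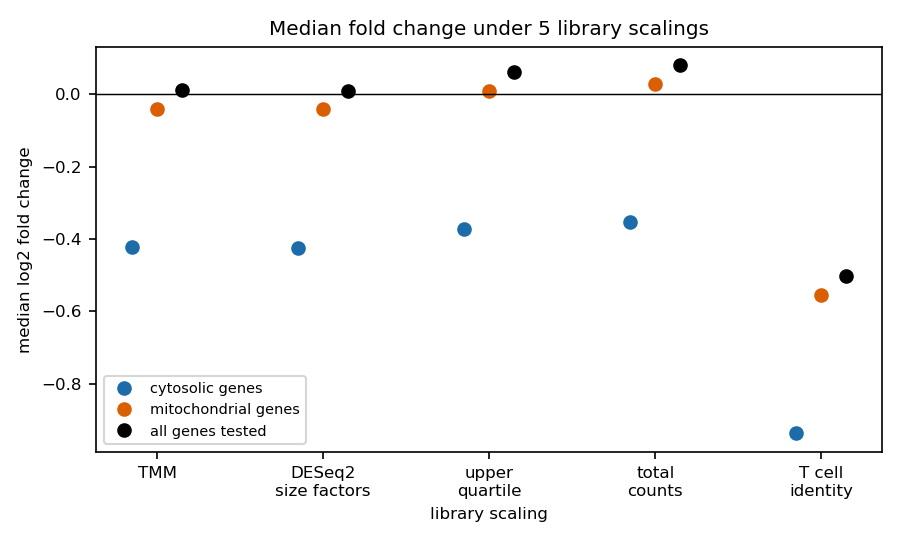
Median log2 fold change (vertical axis) of the 18 cytosolic genes, the 17 mitochondrial genes and all genes tested under 5 library scalings (horizontal axis). The 3 medians move together by construction and are lowest with T cell identity scaling, at -0.94, -0.56 and -0.50.

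Among the cytosolic enzymes, the largest decreases were those of Rars, Iars, Farsb and Mars1. Rars, which charges arginine (chromosome 11, 35699208 to 35725288, minus strand, GRCm39), was at 82.8, 85.4, 83.6 and 80.8 CPM in FOXP3-low libraries and at 49.9, 42.1 and 53.2 CPM in FOXP3-high. It was lower in all 3 FOXP3-high libraries by a log2 fold change of -0.78 ± 0.083 (edgeR adjusted p = 5.11e-05). Iars, the isoleucine enzyme (chromosome 13, 49835576 to 49887743, plus strand), was at 52.7, 50.3, 55.0 and 47.5 CPM against 31.0, 32.5 and 31.9 CPM. The FOXP3-high libraries of Iars lay within 2 CPM of each other and below every FOXP3-low library (-0.69 ± 0.074, edgeR adjusted p = 5.26e-05). Mars1, which charges methionine for initiation and elongation (chromosome 10, 127132090 to 127147655, minus strand), was at 27.6, 27.7, 31.6 and 27.5 CPM against 19.1, 16.7 and 19.7 CPM (-0.63 ± 0.094, edgeR adjusted p = 0.000473). Its groups did not overlap, and FOXP3-low replicate 3 stood above the other three.

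Phenylalanine is charged in the cytosol by a tetramer of Farsa (the catalytic alpha chain) and Farsb (the beta chain). Farsb (chromosome 1, 78394612 to 78465479, minus strand) was at 15.4, 14.2, 18.01 and 17.4 CPM in FOXP3-low libraries and 13.1, 8.57 and 8.49 CPM in FOXP3-high. FOXP3-high replicate 1 was the highest of its group and still below the lowest FOXP3-low library, with the other two below 9 CPM (-0.69 ± 0.17, edgeR adjusted p = 0.00965). Farsb lost its call without both libraries numbered 3 (-0.52, edgeR adjusted p = 0.0654). Farsa fell by 0.40 ± 0.079 on the log2 scale, from 53.6 ± 3.23 to 40.7 ± 2.88 CPM.

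Gars and Kars each make the glycine and lysine enzymes of both compartments from a single gene, and both fell. Gars (chromosome 6, 55014992 to 55056485, plus strand) was at 159, 139, 150.4 and 157 CPM in FOXP3-low libraries and 101, 88.2 and 97.3 CPM in FOXP3-high. All FOXP3-high libraries were below all FOXP3-low libraries (-0.66 ± 0.068, edgeR adjusted p = 4.25e-05). Kars (chromosome 8, 112720075 to 112737955, minus strand) was at 135, 130.3, 125 and 139 CPM against 97.6, 96.1 and 88.7 CPM, again without overlap (-0.49 ± 0.059, edgeR adjusted p = 0.000112).

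Vars and Wars1 were the cytosolic genes that were not called. Vars, the valine enzyme, was at 107, 103, 96.6 and 109 CPM in FOXP3-low libraries and 87.4, 111 and 85.1 CPM in FOXP3-high, where replicate 2 exceeded every FOXP3-low library. Its log2 fold change was -0.14 ± 0.094 (edgeR adjusted p = 0.26), and without FOXP3-high replicate 2 Vars was called lower (-0.24, edgeR adjusted p = 0.0183). Wars1, the tryptophan enzyme, known in human cells as a gene induced by interferon-gamma, was at 38.4, 36.0, 40.6 and 39.7 CPM against 36.97, 31.3 and 39.2 CPM. The groups of Wars1 overlapped (-0.11 ± 0.091, edgeR adjusted p = 0.358). Of 17 tested interferon-gamma response genes 7 were called higher and 5 lower, with a median log2 fold change near 0 (-0.0011). The shares over all genes tested were 21.8% higher and 24.6% lower. The receptor chain Ifngr1 was at 457 ± 25.0 and 1079.9 ± 94.7 CPM and the GTPase Irgm2 at 113 ± 4.44 and 190.5 ± 9.01 CPM, both called higher. The other receptor chain, Ifngr2, was called lower, at 24.3 ± 3.78 and 14.9 ± 2.13 CPM (-0.71). Also called lower were Cxcl10 (-1.05), Gbp2 (-0.52), Psmb8 (-0.45) and Gbp5 (-0.34).

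The remaining cytosolic genes fell by less than Mars1. Nars, the asparagine enzyme, was the most abundant synthetase transcript per length and fell from 127 to 84.6 CPM per kb of gene model (as CPM, from 553 ± 12.6 to 368 ± 16.2; log2 fold change -0.59 ± 0.045, edgeR adjusted p = 6.74e-06, the smallest of the 37). Sars, the serine enzyme and the second by level per length, had the smallest called decrease, from 74.2 to 65.3 CPM per kb (-0.18 ± 0.049, edgeR adjusted p = 0.0124), and overlaps the gene model Gm56809 on the opposite strand, which stood at 274 and 245 CPM beside 382 and 336 CPM of Sars itself. The call of Sars was lost under upper quartile factors, under total counts and without FOXP3-low replicate 4 or FOXP3-high replicate 2 (log2 fold changes -0.14, -0.12, -0.14 and -0.13 in that order). Hars1 (histidine) fell from 62.7 ± 4.69 to 41.4 ± 3.29 CPM and Cars (cysteine) from 76.9 ± 2.79 to 52.7 ± 2.54 CPM. Lars (leucine) fell by 0.37 ± 0.063 on the log2 scale, to 74.9 ± 3.55 CPM; its protein has also been described as a leucine sensor of the mTORC1 pathway. Tarsl2, a second threonine synthetase gene that the symbol rule leaves out, was at 12.7, 12.5, 10.9 and 12.05 CPM in FOXP3-low libraries and 6.45, 7.90 and 9.06 CPM in FOXP3-high, without overlap (-0.62 ± 0.15, edgeR adjusted p = 0.00719).

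**Figure D3:**
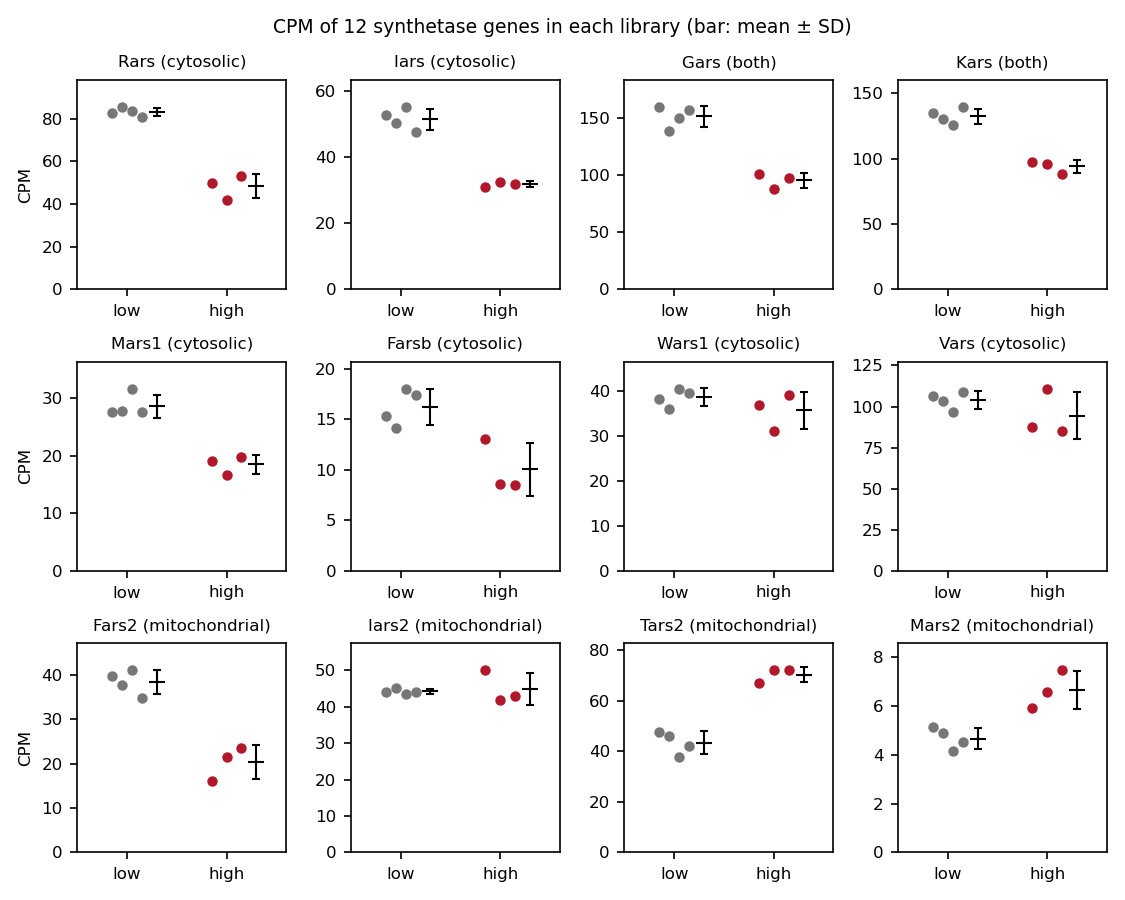
CPM (vertical axes, from 0) of 12 synthetase genes in each FOXP3-low (grey) and FOXP3-high (red) library, with the mean ± SD as a black bar. Rars, Iars, Gars, Kars, Mars1, Farsb and Fars2 are lower in every FOXP3-high library, Tars2 and Mars2 are higher, and Wars1, Vars and Iars2 overlap.

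Part of the cytosolic enzymes travel together in the multi-synthetase complex, a particle held by the scaffold proteins AIMP1, AIMP2 and AIMP3, the last encoded by Eef1e1. All 8 synthetase genes of the complex (Eprs, Iars, Lars, Mars1, Qars, Rars, Kars and Dars) fell, with a median log2 fold change of -0.43. Of the 12 genes outside it that serve the cytosol 10 fell, with a median of -0.46, so that the 2 medians lay close together; their difference was not tested. Eprs, a fusion enzyme for glutamate and proline, fell from 349.7 ± 17.2 to 275 ± 6.41 CPM, and Dars (aspartate) from 104 ± 6.63 to 84.3 ± 3.39 CPM. Qars, the glutamine enzyme, was at 144, 134, 138 and 134 CPM in FOXP3-low libraries and at 111, 107 and 113 CPM in FOXP3-high (-0.32 ± 0.050, edgeR adjusted p = 0.000616). Its groups did not overlap. Among the scaffold genes, Eef1e1 fell from 14.0 ± 1.48 to 7.95 ± 1.09 CPM (-0.81 ± 0.15, edgeR adjusted p = 0.00136) and Aimp1 from 73.8 ± 1.43 to 60.1 ± 4.49 CPM (-0.30 ± 0.066, edgeR adjusted p = 0.0049). Aimp2, at 9.85 ± 1.75 and 6.89 ± 1.38 CPM, was not called (edgeR adjusted p = 0.0545).

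By catalytic fold, synthetases belong to class I, with a Rossmann-fold active site, or class II, with an antiparallel-sheet active site. Of the genes that serve the cytosol, 7 of 9 in class I and 10 of 10 in class II fell, with medians of -0.41 and -0.49; Eprs, which holds a domain of each class, is counted in neither. Among mitochondrial genes the class I median was 0.17 (1 higher and none lower of 9) and the class II median -0.08 (1 higher and 2 lower of 8). Beside these counts, 24.6% of all genes tested were called lower and 21.8% higher. The difference between classes was not tested.

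Promoter windows were examined because ATF4 binds the C/EBP-ATF response element, whose core was searched as TGATGNAA on both strands. RefSeq windows of 300 bases (250 before and 50 after the start site, build GRCm38.p6, not the GRCm39 of the counts) were matched for 27 of the 37 genes. The core was present in 5 of 13 matched genes that serve the cytosol (38.5%), in none of 14 matched mitochondrial genes, and in 4.51% of the 27025 genes of the promoter table. The longer TGATGNAAT was present in 3, 0 and 1.08%. The 5 windows are printed because they hold the only matches among the 27 matched genes; they run 5′ to 3′ along the gene and capitals mark the core or its reverse complement. A match is a description of letters and not evidence of binding.
Gars promoter (chr6:55037751-55038050, plus strand): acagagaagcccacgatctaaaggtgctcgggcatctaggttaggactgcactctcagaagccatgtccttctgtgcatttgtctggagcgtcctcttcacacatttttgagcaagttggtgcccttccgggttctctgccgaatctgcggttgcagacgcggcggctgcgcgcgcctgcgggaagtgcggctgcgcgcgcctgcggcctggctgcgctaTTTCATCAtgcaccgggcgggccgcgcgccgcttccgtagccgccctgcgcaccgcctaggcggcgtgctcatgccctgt
Iars promoter (chr13:49681880-49682179, plus strand): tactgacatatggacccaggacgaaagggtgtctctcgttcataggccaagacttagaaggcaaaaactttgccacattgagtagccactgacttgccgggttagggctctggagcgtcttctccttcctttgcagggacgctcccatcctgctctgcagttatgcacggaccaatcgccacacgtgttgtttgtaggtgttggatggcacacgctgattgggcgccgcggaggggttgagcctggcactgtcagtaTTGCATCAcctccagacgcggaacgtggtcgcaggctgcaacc
Tars promoter (chr15:11399609-11399908, minus strand): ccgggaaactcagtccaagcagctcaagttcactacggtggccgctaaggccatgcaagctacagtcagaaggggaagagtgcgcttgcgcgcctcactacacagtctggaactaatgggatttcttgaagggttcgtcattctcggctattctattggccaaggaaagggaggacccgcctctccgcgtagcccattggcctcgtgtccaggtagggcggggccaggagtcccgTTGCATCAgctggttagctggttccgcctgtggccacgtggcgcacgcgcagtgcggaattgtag
Aars promoter (chr8:111033592-111033891, plus strand): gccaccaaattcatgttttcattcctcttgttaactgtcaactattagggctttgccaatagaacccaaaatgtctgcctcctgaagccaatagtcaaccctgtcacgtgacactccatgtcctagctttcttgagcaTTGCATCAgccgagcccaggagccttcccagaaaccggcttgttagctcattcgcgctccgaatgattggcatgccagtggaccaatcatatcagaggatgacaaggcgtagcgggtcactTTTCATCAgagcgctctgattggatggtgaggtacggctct
Yars promoter (chr4:129189653-129189952, plus strand): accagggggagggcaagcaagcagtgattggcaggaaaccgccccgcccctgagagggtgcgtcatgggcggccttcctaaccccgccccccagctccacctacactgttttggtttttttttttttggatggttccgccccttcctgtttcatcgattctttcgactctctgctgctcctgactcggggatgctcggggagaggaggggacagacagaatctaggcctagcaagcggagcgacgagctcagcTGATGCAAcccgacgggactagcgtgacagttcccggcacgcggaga

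The matches lay near the start site. In Gars the core began 30 bases and in Tars 15 bases before it, in Iars 7 bases and in Yars 3 bases after it, and Aars held 2 matches, 112 bases before and 9 bases after it. All 5 genes were called lower. Aars (alanine) was at 184.1, 183, 185 and 173 CPM in FOXP3-low libraries and 144, 133 and 125 CPM in FOXP3-high (-0.43 ± 0.058). The Aars groups did not overlap. Tars (threonine) was at 169.6, 195, 190.2 and 192 CPM against 132, 129 and 137 CPM (-0.49 ± 0.060), and Yars (tyrosine) at 32.3, 34.0, 34.8 and 33.5 CPM against 25.6, 23.2 and 27.0 CPM (-0.41 ± 0.078). Both were lower in every FOXP3-high library, but Yars overlaps C77080 on the opposite strand. The 8 matched genes of the cytosol without the core (Kars, Farsb, Mars1, Farsa, Eprs, Qars, Dars and Sars) were called lower as well. Vars and Wars1, the uncalled genes of the cytosol, had no matched window, so the calls cannot be set against the motif.

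Atf4 itself was at 163, 184, 169 and 168 CPM in FOXP3-low libraries and 159.8, 156 and 158 CPM in FOXP3-high. Its groups did not overlap, but the difference was small and not called (-0.12 ± 0.052, edgeR adjusted p = 0.0919); binding and protein activity of ATF4 were not measured. Of 24 tested ATF4 target genes other than synthetases, 14 fell, 2 rose and 8 were not called, with a median of -0.53. Over all genes tested, 24.6% were called lower and 21.8% higher. The 2 that rose were the transporter genes Slc38a2 (0.36) and Slc1a5 (0.27). Phgdh, the first enzyme of serine synthesis, was at 122, 126, 125 and 127 CPM against 46.8, 45.4 and 41.7 CPM, without overlap. Slc7a11, the light chain of the cystine transporter, was at 61.2, 72.5, 53.5 and 60.0 CPM against 3.44, 2.45 and 4.44 CPM. The part of other cells in these differences was not tested either. Of 10 amino acid sensing and integrated stress response genes, Atf4 among them, 2 fell, 1 rose and 7 were not called. Their median was -0.05, and the shares over all genes are those given above. Eif2s1, the translation factor that the stress kinases phosphorylate, fell from 124 ± 5.93 to 77.3 ± 0.795 CPM. The kinase gene Eif2ak2 also fell (-0.19), and Eif2ak3, the endoplasmic reticulum stress kinase, rose from 45.2 ± 2.93 to 56.6 ± 2.43 CPM. Eif2ak4, which encodes GCN2, was not called (-0.21 ± 0.090, edgeR adjusted p = 0.082).

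In the mitochondrial set, Fars2 had the largest decrease. Fars2, a phenylalanine enzyme that works as a single chain (chromosome 13, 36301395 to 36910254, plus strand), was at 39.7, 37.7, 41.0 and 34.7 CPM in FOXP3-low libraries and 16.0, 21.6 and 23.4 CPM in FOXP3-high. This was the largest decrease of the 37 genes (-0.92 ± 0.13, edgeR adjusted p = 0.000311). Its gene model overlaps 2 genes of the opposite strand, Lyrm4 at its start and Nrn1 at its end. Nrn1 was at 42.4 ± 3.23 and 19.0 ± 3.63 CPM and was itself called lower. The strand setting used in counting was not given in the sources used here, so reads in the shared stretch cannot be told apart.

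Tars2 and Mars2 rose. Tars2, the mitochondrial threonine enzyme (chromosome 3, 95647288 to 95667518, minus strand), was at 47.8, 46.3, 37.6 and 42.0 CPM in FOXP3-low libraries and 67.1, 72.1 and 72.1 CPM in FOXP3-high. Every FOXP3-high library exceeded every FOXP3-low library (0.70 ± 0.089, 1.62-fold, edgeR adjusted p = 0.000162), but with T cell identity scaling the value was 0.19 and not called (edgeR adjusted p = 0.106). Mars2, which charges the methionine tRNA that also starts mitochondrial proteins (chromosome 1, 55276336 to 55287629, plus strand), was at 5.12, 4.88, 4.14 and 4.52 CPM against 5.93, 6.57 and 7.46 CPM. The groups of Mars2 did not overlap, yet its call (0.51 ± 0.17, edgeR adjusted p = 0.0327) was lost in 9 of 18 alternatives. These were leaving out FOXP3-low replicate 3 or 4, FOXP3-high replicate 2 or 3 or both libraries numbered 3, no filter on low counts, DESeq2, the replicate block and T cell identity scaling, where the log2 fold change was 0.0042. Mtfmt, which formylates that tRNA, was at 6.72 ± 1.59 and 9.04 ± 0.796 CPM and was not called (edgeR adjusted p = 0.125).

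The other 13 mitochondrial genes were not called, with log2 fold changes from -0.47 (Yars2) to 0.36 (Cars2). Their SE ran from 0.078 to 0.36, against at most 0.17 in the genes of the cytosol, and 5 of the 13 had an SE within that limit. The widest SE was that of Pars2, which had as few as 7 counts in 1 library. Iars2 and Hars2 had at least 375 and 213 counts in each library. Iars2, for isoleucine, had the smallest SE and change of these, at 44.0, 45.2, 43.7 and 44.2 CPM in FOXP3-low libraries and 50.04, 41.7 and 42.9 CPM in FOXP3-high, with overlapping groups (0.02 ± 0.078). Its gene model overlaps Rab3gap2 on the opposite strand, which was at 41.6 ± 1.68 and 36.3 ± 1.11 CPM and was itself called lower. Vars2, for valine, was at 8.21, 10.7, 12.1 and 9.03 CPM against 8.77, 10.2 and 10.2 CPM and overlapped too (-0.04 ± 0.16). Rars2 and Cars2 were not called (edgeR adjusted p = 0.0636 and 0.0606) although their groups did not overlap: Rars2 was at 13.1 ± 0.746 and 10.3 ± 1.58 CPM, and Cars2 at 6.54 ± 0.199 and 8.38 ± 0.592 CPM. Rars2 was called lower without FOXP3-high replicate 1 (-0.49, edgeR adjusted p = 0.0245). Cars2 was called higher with upper quartile factors, total counts and the stricter filter (0.41, 0.42 and 0.36, edgeR adjusted p = 0.0362, 0.0261 and 0.0473) and stood at -0.16 with T cell identity scaling. In all, 5 mitochondrial genes stood at or above the 16.2 CPM of Farsb, the least abundant gene of the cytosol, in FOXP3-low. Of these, 1 fell (Fars2), 1 rose (Tars2) and 3 were not called (Hars2, Iars2 and Lars2).

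Lars2, the mitochondrial leucine enzyme, differed between libraries of one group more than between groups. It was at 29.3, 28.1, 55.8 and 23.9 CPM in FOXP3-low libraries and 43.9, 29.3 and 43.7 CPM in FOXP3-high (0.18 ± 0.28, edgeR adjusted p = 0.628). Without FOXP3-low replicate 3 it was called higher (0.52, edgeR adjusted p = 0.0276). In that library the fibroblast and pericyte genes summed to 636 CPM, against 54.9 to 96.2 CPM in the other FOXP3-low libraries, and the endothelial genes to 306 CPM, against 97.1 to 119 CPM. In FOXP3-high replicates 1, 2 and 3 the fibroblast and pericyte sums were 208, 26.5 and 493 CPM and the endothelial sums 195, 73.1 and 337 CPM. The part of these cells in the values of Lars2 was not tested.

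Mitochondria hold no glutaminyl-tRNA synthetase of their own. They charge that tRNA with glutamate through Ears2 and convert it with the amidotransferase made by Qrsl1, Gatb and Gatc. Ears2 was at 3.49, 4.56, 4.42 and 4.52 CPM in FOXP3-low libraries and 3.95, 5.01 and 5.38 CPM in FOXP3-high, with overlapping groups (0.17 ± 0.20). Qrsl1, Gatb and Gatc were not called either (edgeR adjusted p = 0.717, 0.559 and 0.349), and Qrsl1 stood at 5.96 ± 1.03 and 6.46 ± 1.64 CPM.

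Among genes that guard the accuracy of charging, Aarsd1, which clears mischarged alanine tRNA, fell from 39.5 ± 4.56 to 23.4 ± 1.20 CPM (-0.75 ± 0.10, edgeR adjusted p = 0.000278) and Dtd2 from 5.47 ± 0.697 to 3.51 ± 0.286 CPM, while Dtd1 and Prorsd1 were not called. Of 22 tested tRNA end processing and export genes, 8 fell, 2 rose and 12 were not called, with a median of -0.37. Over all genes tested, 24.6% were called lower and 21.8% higher (46.5% in either direction). The 2 that rose were Trnt1 (0.37) and Elac1 (0.33). Rtcb, the tRNA ligase, fell from 145 ± 8.07 to 112 ± 5.01 CPM and Pop1, a subunit of ribonuclease P, from 4.997 ± 0.246 to 2.26 ± 0.204 CPM.

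A ratio of 2 genes within a library does not depend on how libraries are scaled. For 18 pairs of a cytosolic and a mitochondrial gene for the same amino acid (Eprs and Fars2 each enter 2 pairs), the cytosolic to mitochondrial count ratio was lower in every FOXP3-high library than in every FOXP3-low library in 8 pairs, higher without overlap in 0 and overlapping in 10. The ratio of Tars to Tars2 counts was 3.55, 4.21, 5.05 and 4.58 in FOXP3-low and 1.97, 1.78 and 1.90 in FOXP3-high, the largest difference (-1.20 on the log2 scale). Mars1 to Mars2 counts stood at 5.38, 5.68, 7.64 and 6.09 against 3.22, 2.54 and 2.65, and Cars to Cars2 at 11.8, 11.7, 12.01 and 11.5 against 6.62, 5.76 and 6.56. In these 3 pairs the cytosolic gene fell, Tars2 and Mars2 rose and Cars2 was not called. Iars to Iars2, Nars to Nars2, Hars1 to Hars2, Eprs to Ears2 and Rars to Rars2 completed the 8, with differences from -0.71 to -0.44. Hars1 and Hars2 lie head to head and their models overlap at the start, so reads there are of uncertain origin. The same holds for the stretch that Iars2 shares with Rab3gap2. The pair differences ran from -1.20 to 0.53, the latter for Farsa to Fars2. The share of other gene pairs that separate the groups was not computed, so the 8 pairs have no background beside them. Of single genes tested, 26.8% were lower and 23.9% higher without overlap. These ratios are a description and carry no test.

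**Figure D4:**
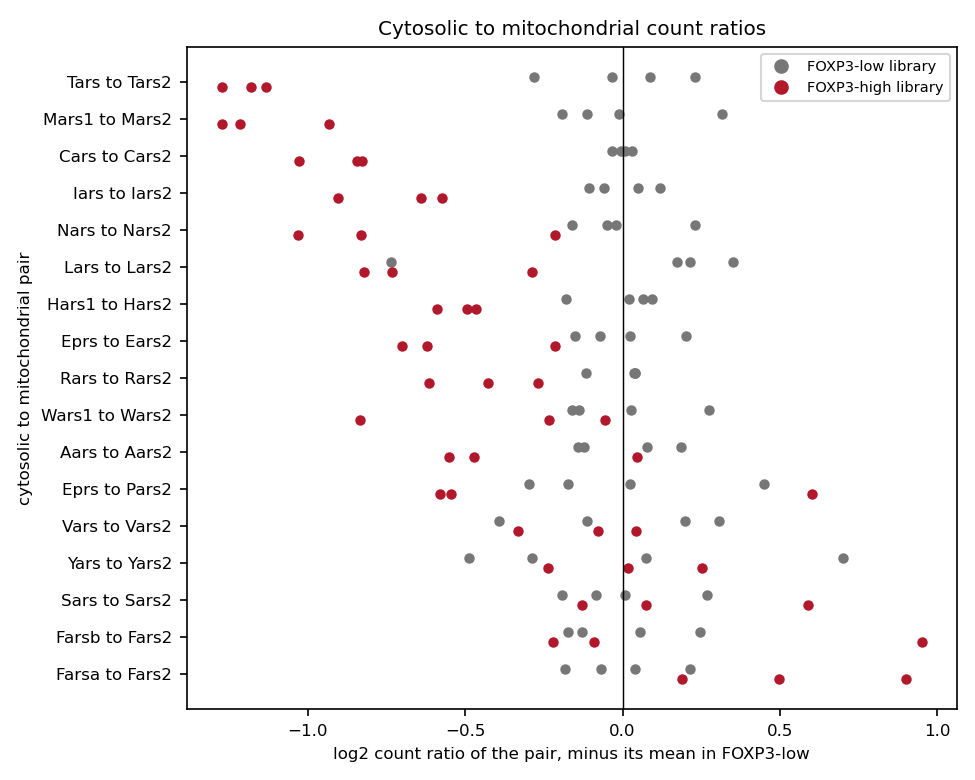
Log2 count ratio of cytosolic to mitochondrial pairs in each library, minus the pair's mean over FOXP3-low (horizontal axis); grey points are FOXP3-low and red points FOXP3-high libraries. In the 8 pairs without overlap all red points lie left of the grey points, with the largest mean difference for Tars to Tars2.

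By level per length, Nars, Sars and Gars led in both groups, at 127, 74.2 and 48.5 CPM per kb in FOXP3-low and 84.6, 65.3 and 30.6 CPM per kb in FOXP3-high. In FOXP3-low the highest mitochondrial genes were Fars2 and Tars2, at 6.66 and 6.26 CPM per kb, below Mars1 at 8.36 and above Farsb and Yars at 6.20 and 5.66. In FOXP3-high Tars2 was the highest mitochondrial gene at 10.2 CPM per kb, above Farsa, Cars and Iars at 8.96, 8.01 and 6.03. The lowest level per length was that of Mars2 in FOXP3-low (0.413 CPM per kb) and of Pars2 in FOXP3-high (0.472 CPM per kb). Lengths are those deposited for each gene model, and Mars2, with 11294 bases, has a long one, so neighbouring places in this order are not firm.

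**Figure D5:**
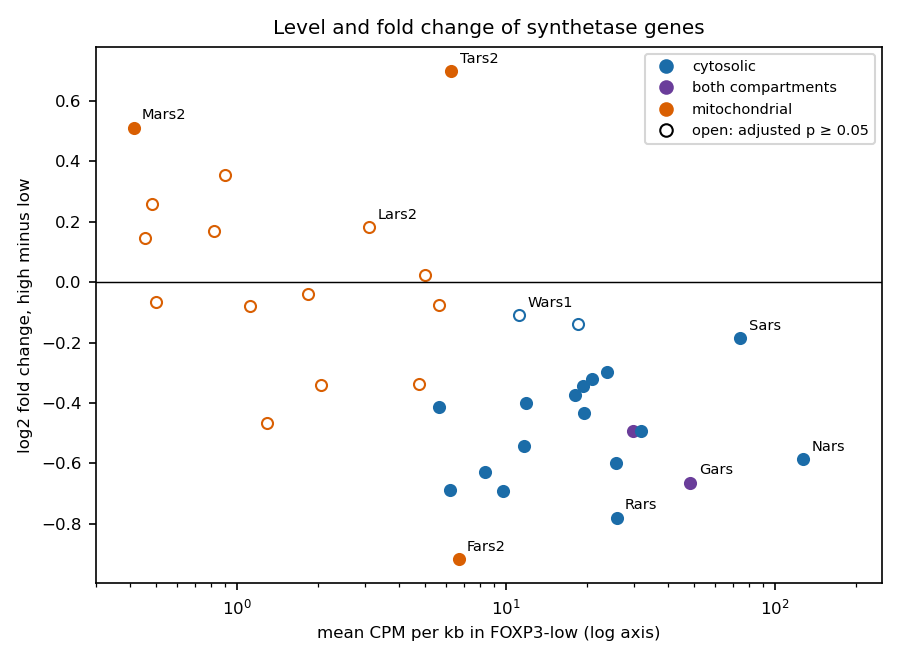
Mean CPM per kb in FOXP3-low (horizontal log axis) against log2 fold change (vertical axis) of synthetase genes, coloured by compartment, filled where called. The genes of the cytosol lie below 0 from Yars at 5.66 to Nars at 127 CPM per kb, and Fars2 and Tars2 lie within the lower end of that range.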

How the data were processed

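The members and the 18 gene lists (200 entries) were chosen with earlier results of these data known. RNA libraries were stranded mRNA libraries from TRIzol-extracted total RNA, per the labels' protocols. The authors deposited 1 table of whole-number counts per gene, not normalized, with gene coordinates and a gene length in bases. The tools named in the submitters' processing notes are featureCounts, STAR 2.5.3a and fastp 0.23.4, with the builds GRCm39 and GRCh38; coordinates are given as GRCm39. The strand setting and the handling of multi-mapping and duplicate reads were not given in the sources used here. Overlapping gene models with at least 10% of a member's counts were found for 8 members.

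Sample titles gave the group and the replicate number. Replicate pairs differed by more than counting noise (chi-square per gene 3.98 to 12.2). Counts were filtered with filterByExpr (minimum count 10, total 15), normalized by TMM (factors 0.973 to 1.05) and tested in R 4.3.3 with edgeR 4.0.16 (glmQLFit, glmQLFTest, no block); the SE is the size of the log2 fold change over the root of F. Lists are described by counts of calls and medians. A level of 1 CPM stands for 9 to 15 counts, depending on the library. Alternatives were other scalings, filters and tests (DESeq2 1.42.0, limma 3.58.1), leaving out libraries, a replicate block and a longer promoter motif. Tested on simulated counts for 15838 genes of this comparison, the edgeR step recovered 57% of 100 genes changed by a log2 fold change of 1 and 16% of 100 changed by 0.5, with 5.19% false calls. No other genes were changed in the simulation, whereas 46.5% of the genes tested were called in the data. These recovery rates therefore do not carry over to this comparison.

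Genes given in every library were, per compartment, the 4 largest called changes in each direction and the 2 smallest changes, with Wars1, Gars, Kars, Tarsl2 and Qars for their roles; of other lists, the 2 called genes with the smallest adjusted p (or the 2 of highest mean where none was called), most of them given here by group means only. Aars, Tars, Yars, Lars2, Ears2 and members given only by mean were added after their values were seen. One mitochondrial member is counted in the totals and medians but is not reported here by name or drawn. Promoter windows came from RefSeq (GRCm38.p6).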

Additional observations from a re-analysis of the deposited data

Results flagged for a closer look

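In the 4 FOXP3-low libraries, 4 of the 37 synthetase genes had 1 library far from the others (its gap to the nearest, as a share of the whole range, was above Dixon's 95% critical value), where chance gives about 1 gene in 20. Lars2 was at 55.8 CPM in FOXP3-low replicate 3, against 23.9 to 29.3 CPM in the others. Mars1 was at 31.6 CPM in the same library, against 27.5 to 27.7 CPM. Aars was at 173 CPM in FOXP3-low replicate 4 and 183 to 185 CPM in the others. Ears2 was at 3.49 CPM in FOXP3-low replicate 1 and 4.42 to 4.56 CPM in the others, a gap that at this level amounts to few counts.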

How the results depend on the processing

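Over 18 alternatives, 16 of the 18 called genes of the cytosol kept their call in every one; the exceptions, Sars and Farsb, are given above, and 359 of 360 values were negative, the exception being Wars1 without FOXP3-high replicate 2 (0.0028). The cytosolic median was -0.35 with total counts, -0.94 with T cell identity scaling and -0.48 to -0.40 with 1 library left out. The mitochondrial median was 0.010 with upper quartile factors, 0.028 with total counts, -0.555 with T cell identity scaling, 0.063 with limma-voom quality weights, 0.028 without both libraries numbered 3 and -0.11 to 0.11 with 1 library left out. The count of genes called higher was 0 with T cell identity scaling, 1 without a filter, 1 with DESeq2, 1 without both libraries numbered 3, 1 to 2 with 1 library left out, and 3 with upper quartile factors, total counts and the stricter filter, where Cars2 was called. The causes were not tested.

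Log2 fold changes that were not called, and untested pair ratios, changed sign in some alternatives. These were Vars2 0.010 with upper quartile factors; Pars2 0.010 and Vars2 0.028 with total counts; Iars2 -0.020 without a filter; Pars2 0.086 and Aars2 0.033 with quality weights. With T cell identity scaling Iars2 was at -0.49 (called lower, edgeR adjusted p = 0.0031), Wars2 -0.26, Ears2 -0.34, Nars2 -0.37, Cars2 -0.16 and Lars2 -0.34. Without both libraries numbered 3, Vars2 was at 0.028, Hars2 0.0064, Eprs to Pars2 0.18, Sars to Sars2 -0.024 and Yars to Yars2 -0.085. With 1 library left out the ranges were Pars2 -0.27 to 0.24, Yars to Yars2 -0.15 to 0.25, Vars2 -0.11 to 0.052, Iars2 -0.089 to 0.099, Nars2 -0.11 to 0.35, Eprs to Pars2 -0.56 to 0.027, Farsb to Fars2 -0.16 to 0.43, Wars1 -0.18 to 0.0028, Aars2 -0.29 to 0.11, Hars2 -0.13 to 0.014 and Sars to Sars2 -0.027 to 0.33.

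Each gene's group mean was subtracted from its log CPM, and the remaining deviations were correlated between libraries. These deviations correlated at -0.10, 0.096 and 0.53 between same-numbered libraries, and only the FOXP3-high library numbered 3 correlated best with its own number. Whether same-numbered libraries share an animal or a day cannot be told from these values. With the replicate number as a block, 16 cytosolic genes were called lower and 1 synthetase gene higher. In FOXP3-low, 12 of 17 mitochondrial genes were below the level of Farsb; whether depth limits their calls was not tested.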
